A study of Mus musculus with 6 samples.

Results

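The genes of fatty acid oxidation, 29 in all, were read from a table of 25894 genes measured by RNA sequencing in mouse inguinal white adipose tissue, a fat depot under the skin of the groin. The 29 were fixed by name: the carnitine shuttle, the enzymes of the mitochondrial cycle, the electron carriers that serve it, the enzymes for unsaturated chains, peroxisomal enzymes, and a small group around Ppara. All 29 were in the table, and all passed the filter of a mean normalised value of at least 1 over the 6 mice, as did 22290 genes in all. For the comparison of compartments, 20 members were listed as mitochondrial, 3 as peroxisomal and 3 as both, and 3 were kept out of these lists: Ppara, the cytosolic Acot1, and Ucp3, which sits in the mitochondrial inner membrane but is a carrier outside the cycle.

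The 6 mice were C57BL/6N females, given as 15 weeks old in the series' design text, and each library came from 1 mouse. In 3 mice, 8 weeks of fragmented sleep were followed by 2 weeks in which sleep could recover (called fragmented, recovered 1 to 3), and 3 mice were labelled as controls (control 1 to 3). All 6 were fasted for 10 h before the tissue was taken. No allele, transgene or drug is named in the labels. The comparison asks whether transcripts of this pathway differed from controls after the recovery period. No mouse here was sampled before recovery, so whether a difference lasted or faded cannot be read from it.

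Fatty acid oxidation breaks acyl chains down to acetyl-CoA, and in mitochondria each turn of the cycle passes electrons to the respiratory chain. Long chains enter mitochondria as carnitine esters, while peroxisomes take very long and branched chains, shorten them and export the products. In white fat, fasting releases fatty acids from stored triglyceride, and adipocytes oxidise a small part of them themselves. Ppara, a nuclear receptor activated by fatty acids, switches on many of these genes in liver and brown fat.

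No member passed the test in either direction, as was true of all 22290 genes tested (0% at an FDR of 0.05, limma with Benjamini-Hochberg adjustment). The 29 log2 differences, fragmented, recovered minus control, had a median of 0.033 beside 0.023 for all genes tested, and 22 of them lay within 0.35 of 0. The members' values were spread widely among controls. Control 1 was the highest of the 6 mice in 20 of 29 members (69.0%), against 12.7% of all genes tested, and control 2 was the lowest in 20 of 29, against 15.5%. In 20 members (69.0%) all 3 fragmented, recovered mice lay between the lowest and the highest control, against 18.1% of all genes.

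Some facts of the whole table bear on every value below. The normalised value is the deposited unit, reads divided by a scaling factor for each library, and whole reads recovered from it summed to between 15610201 and 19703569 per library. Controls 2 and 3 stood apart from the other 4 libraries on the main axis of variation over all genes, which held 42.3% of the variance. Fragmented, recovered 2 lay between, at 8.8, with controls 2 and 3 at 116.2 and 111.5. On that axis fragmented, recovered 1 and 3 and control 1 were at -90.6, -69 and -77. In controls 2 and 3, deviations fell with the GC content of genes (Spearman rho across genes of -0.278 and -0.275). The other 4 had 0.133 to 0.368, and genes are not independent replicates. Defining adipocyte markers were present in every library, and the 10 adipocyte markers, led by Fabp4 and Cfd, summed to between 170939 in control 2 and 613332 in fragmented, recovered 1. Markers of other tissues also varied between mice. Skeletal muscle markers, 14 of 15 in use and led by Acta1 and Myh4, summed to 89618 in fragmented, recovered 1 and 11785 in control 2, and to between 227.3 and 2354 in the other 4, with 9 of them (Ckm, Myh1, Myh2, Myh4, Myh7, Tnnt3, Mylpf, Atp2a1 and Mb) at 0 in at least 1 library. The 12 markers of B and plasma cells, led by Igkc and Ighm, were highest in control 2, at a sum of 89242, then in fragmented, recovered 2 (36423) and control 3 (21786), while the other 3 libraries held at most 3585. Sums ran from 568.8 to 6696 for T cells (Il7r and Lck leading), 8112 to 24289 for macrophages (Lyz2, Csf1r), 19386 to 52114 for mammary epithelium (Prlr, Krt19) and 839.9 to 4897 for keratinocytes (Ly6d, Trp63), the last 2 lists being lowest in controls 2 and 3. Fewer cells of a type and less RNA per cell cannot be told apart in such bulk samples.

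Promoter sequences of members whose pairing matters below are given here, as the 250 bases before the start site in the RefSeq promoter table (build GRCm38.p6), which held 23 of the 29 members. Hadha and Hadhb encode the subunits of the mitochondrial trifunctional protein and are transcribed away from each other, with 272 bases between their start sites. The Hadhb window, chr5:30155003-30155252 on the plus strand, shares 228 of its 250 bases with the upstream window of Hadha. Capitals mark GGGCGG, the core of the GC box.
Hadhb: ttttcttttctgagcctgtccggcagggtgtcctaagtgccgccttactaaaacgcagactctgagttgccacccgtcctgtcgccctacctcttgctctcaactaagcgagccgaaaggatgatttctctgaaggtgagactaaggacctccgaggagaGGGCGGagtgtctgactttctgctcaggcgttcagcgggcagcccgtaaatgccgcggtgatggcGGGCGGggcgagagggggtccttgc
Acot1 and Acot2 are neighbouring paralogs for acyl-CoA thioesterases, and their windows lie on the plus strand at chr12:84009252-84009501 and chr12:83987611-83987860. Capitals mark CCAAT on either strand.
Acot1: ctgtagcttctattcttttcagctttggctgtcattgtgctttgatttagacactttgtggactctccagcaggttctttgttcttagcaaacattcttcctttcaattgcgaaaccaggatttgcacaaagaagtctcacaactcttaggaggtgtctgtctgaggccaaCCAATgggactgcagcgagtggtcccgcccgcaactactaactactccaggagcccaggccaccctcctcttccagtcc
Acot2: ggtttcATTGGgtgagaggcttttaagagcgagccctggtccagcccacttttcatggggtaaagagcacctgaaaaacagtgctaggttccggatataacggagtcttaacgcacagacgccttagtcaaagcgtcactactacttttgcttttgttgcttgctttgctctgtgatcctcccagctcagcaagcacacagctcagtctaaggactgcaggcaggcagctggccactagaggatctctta
Acadm, for medium-chain acyl-CoA dehydrogenase, is a textbook target of Ppara, and its window lies on the minus strand at chr3:153944644-153944893. Capitals mark AGGTCA, the hexamer that nuclear receptors recognise, here on the opposite strand.
Acadm: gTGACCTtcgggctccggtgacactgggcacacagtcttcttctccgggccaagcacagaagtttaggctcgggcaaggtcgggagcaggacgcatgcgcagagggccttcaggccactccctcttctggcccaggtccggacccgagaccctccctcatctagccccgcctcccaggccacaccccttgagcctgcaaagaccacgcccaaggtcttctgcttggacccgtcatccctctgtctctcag

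Searched on both strands, GGGCGG was in the 250-base windows of 16 of the 23 members, among them Hadha, Hadhb and Cpt2, against 32.7% of all 32851 promoter windows. CCAAT was in 10 of 23, including Etfa, Etfb and Etfdh, against 33.8% of all windows. AGGTCA was in 5 (Acadm, Acadvl, Cpt1a, Echs1 and Ucp3), against 14% of all windows. TATAAA was in 0 of the 23 windows, against 12.4% of all windows. These matches describe letters in a short window, and no window was tested for binding.

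The carnitine shuttle brings long chains into mitochondria. Cpt1a, the outer membrane transferase that sets the rate of entry, had normalised values of 1326, 2443 and 1860 in the fragmented, recovered mice and 1902, 1961 and 1869 in controls. The controls lay within a narrow band that the fragmented, recovered mice spanned on both sides, and the log2 difference was -0.07 (SE 0.26, limma adjusted p = 0.939). Cpt2, the inner membrane transferase that returns the chain to CoA, had 2800, 2605 and 2618 against 3522, 2366 and 2898. Slc25a20, the carnitine-acylcarnitine carrier, had 1942, 1918 and 1640 against 2379, 1463 and 2021. For both, control 1 was the highest and control 2 the lowest of the 6 mice, and the log2 differences were -0.11 (SE 0.23) and -0.07 (SE 0.25). Crat, which transfers short chains to carnitine in mitochondria and peroxisomes, had 6281 ± 342.5 (SD, n = 3) against 6351 ± 1995, with control 1 at 8452 and control 2 at 4483.

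Cpt1b, the muscle and brown fat form of the outer transferase, was barely counted. It had 7 and 6 whole reads in fragmented, recovered 2 and 3, and it was at 0 in fragmented, recovered 1 and in all 3 controls. The limma adjusted p was 0.697, and no fold is drawn from so few reads. Fragmented, recovered 1, the library with by far the highest muscle markers, had 0 reads of Cpt1b. In the GENCODE M21 annotation, 81.4% of the exon bases of Cpt1b also belong to another gene model on the same strand, Gm44502. Gm44502 is not among the genes of the table, and the annotation used for counting is not given. Whether reads there were left unassigned is not known, and the part of this in the low counts was not tested.

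The acyl-CoA dehydrogenases carry out the initial step of each turn, with a separate enzyme for each range of chain length. Acadl, for long chains, was the most abundant of the 29 per length, with a mean of 4395 normalised reads per kb of exon over the 6 mice, while Acadvl, for very long chains, had 779.4 per kb and Acads, for short chains, 1034 per kb. The values of Acadl were 8508, 8490 and 9326 in fragmented, recovered mice and 11978, 6490 and 8084 in controls. Those of Acadm were 6708, 6658 and 6272 against 8245, 4046 and 4690. For both genes the fragmented, recovered mice sat close together, between control 1 above and controls 2 and 3 below. The log2 differences were 0.03 (SE 0.28) for Acadl and 0.28 (SE 0.30) for Acadm, the latter from 0.07 without control 2 to 0.59 without control 1. Acads had 2281 ± 225 (SD, n = 3) against 2412 ± 257.6 and a log2 difference of -0.08 (SE 0.22). Acads has a GC content of 59.7%, and with GC and length trends removed its log2 difference was -0.67 (limma adjusted p = 0.887). Acadvl had 2000 ± 161.9 against 2187 ± 454.5. Of the exon bases of Acadvl, 42.9% overlap Dvl2 on the opposite strand, so without stated strand counting the reads of the 2 genes cannot be told apart there.

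The later steps hydrate, oxidise and cleave the chain. Hadha and Hadhb, whose proteins form 1 complex for long chains, did not have the same profile over the mice. Hadha had values of 5974, 6662 and 6878 against 8809, 4111 and 5469, and Hadhb had 6534, 6910 and 8326 against 10738, 6874 and 9926. The log2 differences were 0.16 (SE 0.30) and -0.32 (SE 0.27), with limma adjusted p-values of 0.878 and 0.734. The ratio of Hadha to Hadhb was 0.914, 0.964 and 0.826 in the fragmented, recovered mice and 0.820, 0.598 and 0.551 in controls, so the groups did not overlap, though fragmented, recovered 3 and control 1 nearly met. The mean log2 ratio was -0.15 ± 0.11 (SD, n = 3) against -0.63 ± 0.30. The ratio was chosen after its values were seen and is given with no test. Hadhb has the lower GC content, 43.3% against 48.2%, and with the GC and length trends of each library removed the ratios were 0.887, 0.872 and 0.789 against 0.823, 0.657 and 0.596, with fragmented, recovered 3 below control 1.

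**Figure D1:**
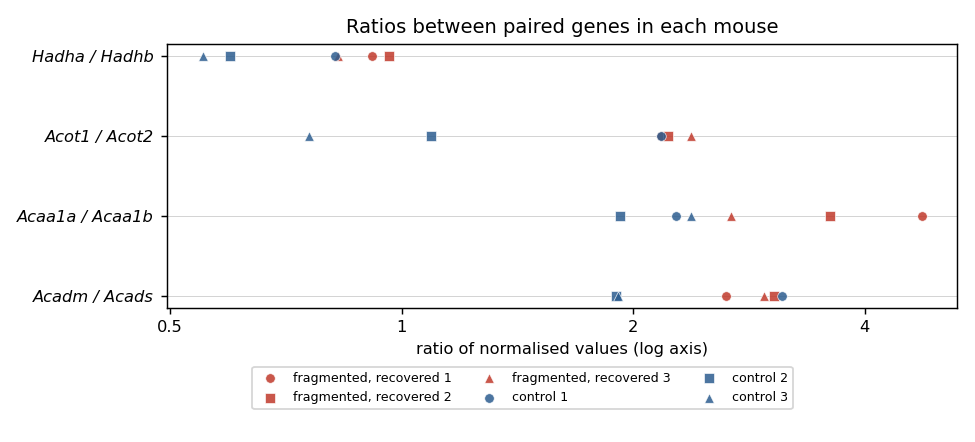
Ratios of normalised values of paired genes in each mouse on a log axis, where each point is 1 mouse, red for fragmented, recovered and blue for control, with the shape giving the replicate number. For Hadha to Hadhb and for Acot1 to Acot2, controls 2 and 3 lie to the left of the other 4 mice, and for Acaa1a to Acaa1b all 3 fragmented, recovered mice lie to the right of the controls.

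Echs1, the short-chain enoyl-CoA hydratase, had 5407 ± 747.8 (SD, n = 3) against 5324 ± 2164, and Hadh, the dehydrogenase for medium and short chains, 5542 ± 535.4 against 6229 ± 1596. Acaa2, the mitochondrial thiolase, had 2938 ± 385.5 against 3399 ± 917.3. Acat1, which handles acetoacetyl-CoA in ketone body and isoleucine metabolism, had 3593 ± 433.2 against 3163 ± 1193. In each of these 4 genes the control SD was larger than the fragmented, recovered SD, and control 1 was the highest and control 2 the lowest mouse. Their log2 differences ran from -0.18 (SE 0.27) for Acaa2 to 0.24 (SE 0.29) for Acat1.

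The electron transfer flavoprotein, made of Etfa and Etfb, takes electrons from the dehydrogenases and hands them to Etfdh in the inner membrane. All 3 genes had positive log2 differences, and none passed. Etfa had 5843, 4250 and 4848 against 6319, 3664 and 4242, a log2 difference of 0.10 (SE 0.28). Etfdh had 2054, 2092 and 2597 against 2921, 1369 and 1485, a log2 difference of 0.30 (SE 0.31). For Etfdh, controls 2 and 3 were below every other mouse and control 1 above every other.

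Etfb varied most of the well-counted members. Its values were 272.7, 510.5 and 318.7 in the fragmented, recovered mice and 712, 50.9 and 69.1 in controls. Controls 2 and 3 were thus far below the other 4 mice, and control 1 was the highest of all. The log2 difference was 1.37 (SE 0.84, limma adjusted p = 0.697), and without control 1 it was 2.56 (adjusted p = 0.0264). The size depended on the method. With all mice, edgeR on whole reads gave 0.425 (edgeR adjusted p = 0.878) and DESeq2 gave 0.405, while limma-voom with quality weights gave 2.34. The mean value of Etfb was 367.3 ± 126.1 (SD, n = 3) in the fragmented, recovered mice and 277.3 ± 376.5 in controls. Its partner Etfa was at 2649 normalised reads per kb of exon and Etfb at 276.9, although the proteins join in equal numbers. In GENCODE M21, 53.0% of the exon bases of Etfb also belong to Gm45233 on the same strand. Gm45233 is not among the genes of the table, and the part of this overlap in the low level of Etfb was not tested. Etfb also has a high GC content, 56.5%, and without control 1 and with GC and length trends removed the log2 difference was 1.79 (adjusted p = 0.0878).

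Unsaturated chains need auxiliary enzymes that shift or reduce the double bonds. All 4 genes of this group had positive log2 differences, from 0.08 (SE 0.33) for Decr1 to 0.67 (SE 0.40) for Ech1, and none passed. Ech1, a dienoyl-CoA isomerase found in mitochondria and peroxisomes, had values of 8109, 5548 and 5554 against 7853, 2614 and 3049. Controls 2 and 3 were again below the other 4 mice, while control 1 lay within the range of the fragmented, recovered mice. Without control 1 the log2 difference of Ech1 was 1.16 (limma adjusted p = 0.0491), and with GC and length trends also removed it was 0.63 (adjusted p = 0.343). Eci1, the mitochondrial enoyl-CoA isomerase, had 2907, 2406 and 2096 against 3335, 1486 and 1652. Eci2, its relative in both compartments, had 2130, 1434 and 1800 against 2178, 1156 and 1092. In both, control 1 was the highest mouse and controls 2 and 3 the lowest. Decr1, the 2,4-dienoyl-CoA reductase of mitochondria, had 4109 ± 394.8 (SD, n = 3) against 4164 ± 1908.

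**Figure D2:**
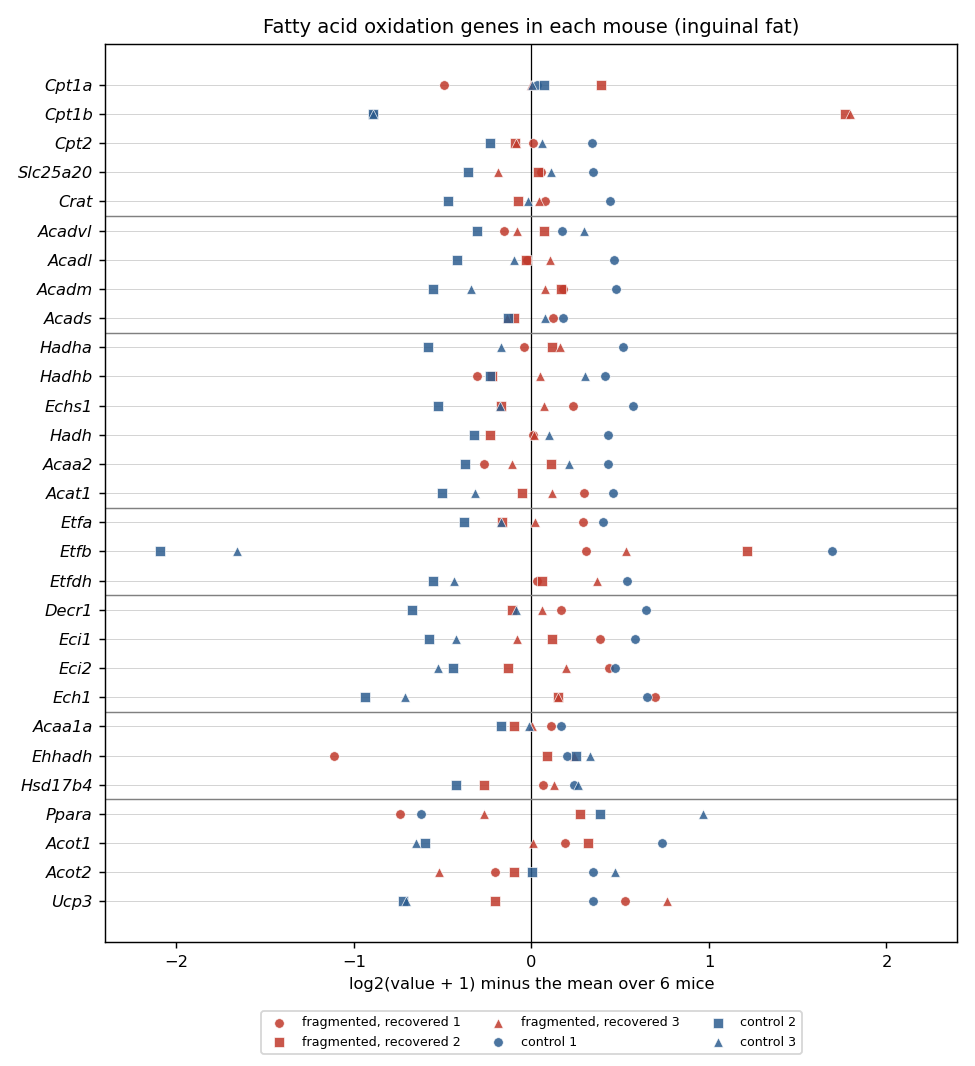
Each member's log2(value + 1) in each mouse minus its mean over the 6 mice, with genes grouped by role between grey lines and each point 1 mouse (red for fragmented, recovered, blue for control, shape for replicate number). Control 1 lies at the right in most mitochondrial rows and control 2 at the left, with the fragmented, recovered mice between them, and for Cpt1b the 4 libraries with 0 reads lie on top of each other.

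The 3 peroxisomal members cover the steps after the acyl-CoA oxidases. Hsd17b4, the multifunctional enzyme for branched and very long chains, had 4142, 3283 and 4323 against 4670, 2950 and 4748, a log2 difference of -0.05 (SE 0.27). Acaa1a, a peroxisomal thiolase, had 2231, 1932 and 2072 against 2322, 1838 and 2049, a log2 difference of 0.01 (SE 0.22, limma adjusted p = 0.992). In both genes the groups overlapped, and with GC and length trends removed the log2 difference of Acaa1a was -0.37. Ehhadh, the bifunctional enzyme that Ppara induces in liver, had 434.4, 999 and 1111 against 1082, 1120 and 1181. Fragmented, recovered 1 was far below the other 5 mice, and without it the log2 difference moved from -0.52 (SE 0.35) to -0.10.

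Mitochondrial and peroxisomal members were compared by the median of their log2 differences and by their medians in each mouse. The mitochondrial members had a median log2 difference of 0.055, 11 above and 9 below 0, and the peroxisomal members -0.051, 1 above and 2 below 0. Cpt1b, with too few reads for a fold, is among the 11. With a mean value of at least 10 required, which leaves Cpt1b out, the mitochondrial median was 0.033. The gap between the 2 list medians was 0.107, or 0.085 with Cpt1b left out. When the lists' median deviations were subtracted in each mouse, the pooled SD within groups was 0.23. That SD is a spread of single mice, not an error of the gap. The gap depended on the libraries and on the GC correction. It was 0.245 without control 1, 0.381 with GC and length trends removed, 0.626 with both, and -0.091 without fragmented, recovered 1 and control 2. No p-value is given for a score over members. In the mitochondrial list the median deviation was 0.020, 0.003 and 0.034 in fragmented, recovered 1 to 3, and 0.433, -0.399 and -0.094 in controls 1 to 3. In the peroxisomal list it was 0.065, -0.098 and 0.127, and 0.202, -0.170 and 0.262. The mitochondrial list thus separated the controls from each other more widely than the peroxisomal list of 3 genes did, and in control 3 the lists had opposite signs. The signs depended on the GC correction. With GC and length trends removed, controls 1 to 3 had 0.456, -0.523 and 0.055 in the mitochondrial list. In the peroxisomal list they had 0.209, 0.037 and 0.421, so the signs then differed in control 2 and not in control 3. The 3 members of both compartments had a median log2 difference of 0.333 and lay at 0.470 in control 1 and at -0.470 and -0.526 in controls 2 and 3. With those 3 added to the peroxisomal list its median was 0.020.

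Other lists placed the controls in a like order. The median deviation of 21 nuclear genes for mitochondrial respiration, 20 of oxidative phosphorylation and citrate synthase (Cs), with Atp5b and Atp5a1 the most abundant, was 0.618, -0.520 and -0.182 in controls 1 to 3 and 0.305, -0.086 and -0.011 in fragmented, recovered 1 to 3. Mature adipocyte markers had 0.395, -0.623 and -0.407 in controls, and 0.688, -0.084 and -0.033 in fragmented, recovered mice. Control 1 was thus high and control 2 low in all 3 lists, while fragmented, recovered 1 was high in adipocyte markers and near 0 in the mitochondrial list. Markers of brown and beige adipocytes were led by Kcnk3 and Cidea, and Zic1 was at 0 in at least 1 library. These markers summed to 6586, 2765 and 3506 in controls and 2558, 6557 and 4870 in fragmented, recovered mice. Their median deviation was 1.138, -0.832 and -0.802 in controls, and -0.477, 0.845 and 0.774 in fragmented, recovered mice. Kcnk3 was instead lowest in control 1 among controls, at 1068, 1672 and 2186, and made up much of the sums in controls 2 and 3. Of the 10 markers, 6 had log2 differences above 0 and 4 below. The part of cell makeup in the members' spread was not tested. Without fragmented, recovered 1 and control 2, the libraries highest in muscle markers in their groups, the mitochondrial median was -0.215 and the peroxisomal median -0.124. With GC and length trends removed, the mitochondrial median was 0.009 and the peroxisomal median -0.372.

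**Figure D3:**
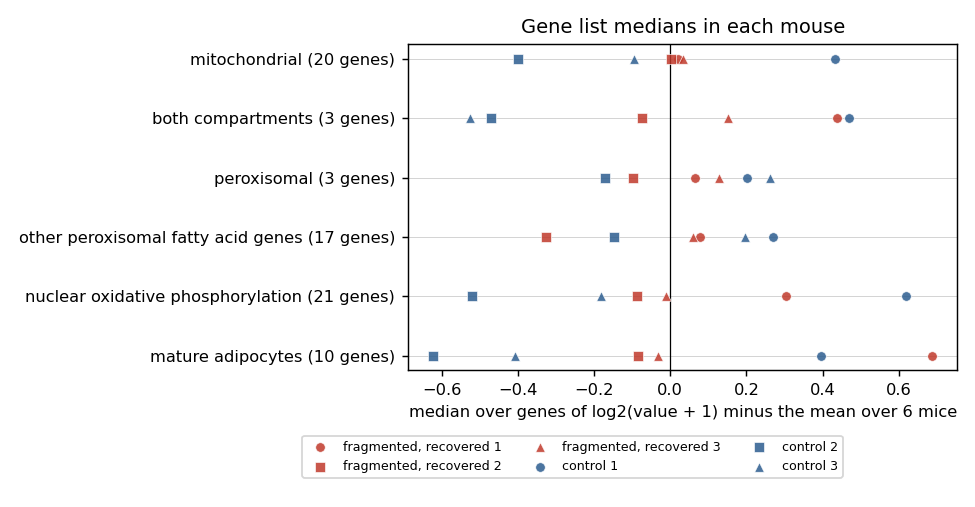
Median over genes of the deviation of log2(value + 1) from each gene's 6-mouse mean, for member lists by compartment and for other lists, where each point is 1 mouse coloured by group and shaped by replicate number. The fragmented, recovered mice nearly coincide for mitochondrial members, at 0.003 to 0.034, while the controls run from -0.399 to 0.433.

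The remaining 4 members are Ppara, the thioesterases Acot1 and Acot2, which split acyl-CoA into free acid and CoA in the cytosol and in mitochondria, and Ucp3, an inner membrane carrier abundant in muscle and brown fat. Ppara was low, at 60.77 normalised reads per kb of exon, with values of 127.5, 258.7 and 177 against 138.6, 279.2 and 417.7. The groups overlapped, and the log2 difference was -0.49 (SE 0.45), from -0.13 without control 3 to -0.92 without control 1. Unlike most members, Ppara was low in control 1 and high in controls 2 and 3. Ucp3 had 762, 458.9 and 898.4 against 673.6, 319.9 and 324.2, a log2 difference of 0.72 (SE 0.37, limma adjusted p = 0.697). Controls 2 and 3 were the lowest mice for Ucp3, and control 1 fell among the fragmented, recovered mice. The muscle marker sum was 445.1 in fragmented, recovered 3, the mouse highest in Ucp3, and 89618 in fragmented, recovered 1, and the part of muscle in the Ucp3 values was not tested.

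Acot2 was the member whose groups did not overlap. It had values of 362.9, 389.9 and 291.6 in the fragmented, recovered mice, all below the 532.9, 418.2 and 580.4 of controls. The log2 difference was -0.55 (SE 0.27), with the smallest unadjusted p of the members, 0.0671, and a limma adjusted p of 0.697. Of all genes tested, 3.58% lay below controls in every fragmented, recovered mouse, so 1 member of 29 is near the background. No member had all fragmented, recovered mice above all controls, against 5.02% of genes. Acot1 had 787.9, 864 and 695.2 against 1155, 456.7 and 440, a log2 difference of 0.34 (SE 0.37). The ratio of Acot1 to Acot2 was 2.17, 2.22 and 2.38 in the fragmented, recovered mice and 2.17, 1.09 and 0.758 in controls, so control 1 matched the fragmented, recovered mice and controls 2 and 3 did not. With GC and length trends removed the ratios were 2.45, 2.6 and 2.43 against 2.37, 0.931 and 0.601. The log2 difference of Acot2 was then -0.92 (limma adjusted p = 0.887). The coding sequences of these paralogs are close, and the counting could split reads between them.

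Across the 29 members, 17 log2 differences were above 0, Cpt1b with its few reads among them, and 12 below. Of all genes, 51.6% were above and 48.4% below 0. The members' limma adjusted p-values ran from 0.697 to 0.992. No member had an unadjusted p under 0.05, against 5.39% of the 22290 genes tested, of which 0 (0%) passed an FDR of 0.05. edgeR and DESeq2 on recovered reads also called 0 genes and had 0 members with an unadjusted p under 0.05, beside 4.67% of genes in edgeR and 4.6% in DESeq2, with no DESeq2 p for Etfb and no edgeR value for Cpt1b. Members that kept their sign when each mouse was left out in turn also moved in size. Without control 1 the log2 difference was 0.53 for Acat1, 0.65 for Etfdh, 0.64 for Eci1, 0.65 for Eci2, 0.80 for Acot1 and 1.08 for Ucp3. Without control 2 it was 0.05 for Acat1, 0.10 for Etfdh and 0.06 for Eci1, and without control 3 it was 0.15 for Eci2 and 0.10 for Acot1. Standard errors of members ran from 0.217 to 0.966, and 23 of 29 were under 0.35. Without control 1, Etfb and Ech1 passed, 2 of 29 members beside 3.79% of all genes, and both were higher, as were 2.53% of all genes. limma-voom with quality weights, which gives unlike libraries less weight, called Etfb alone of the members it tested, beside 6.34% of genes called and 4.33% called higher. In limma without control 1 and with GC and length trends removed, 0 members passed, beside 0.179% of all genes.

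**Figure D4:**
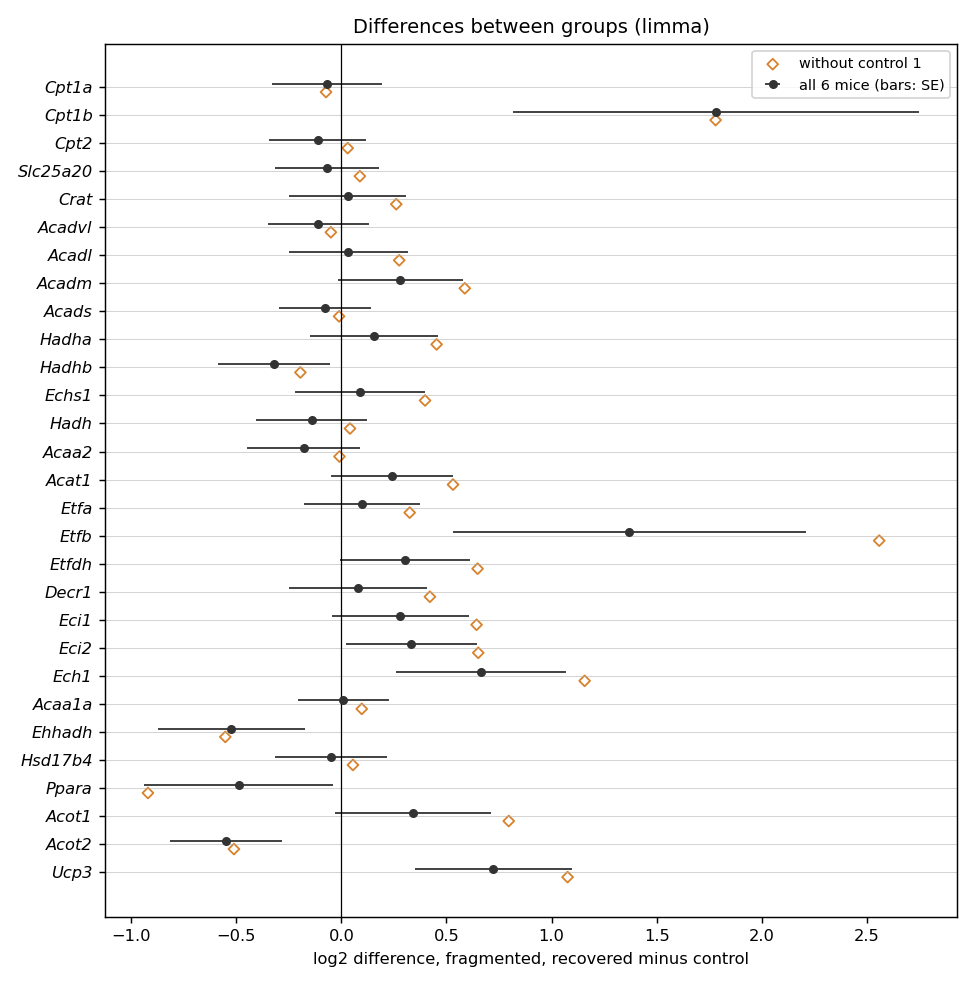
limma log2 differences, fragmented, recovered minus control, for the 29 members with all 6 mice (filled points, bars show the SE) and without control 1 (open diamonds). Most filled points lie near 0 with bars that cross it, and leaving out control 1 moves Etfb from 1.37 to 2.56 and Ech1 from 0.67 to 1.16.

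The wider peroxisomal machinery was read from 17 further genes. Of these, 0 passed the test, and 7 had log2 differences above and 10 below 0, with a median of -0.009. In 4 of the 17 (23.5%) every fragmented, recovered mouse lay below every control, against 3.58% of all genes, and in 1, the oxidase Acox3, every one lay above. Acaa1b, the paralog of the thiolase Acaa1a, had values of 470.7, 536.3 and 772.9 against 1021, 958.5 and 861.1, a log2 difference of -0.70 (SE 0.26, limma adjusted p = 0.697). Acot4, a peroxisomal thioesterase for succinyl and other dicarboxylic acyl groups, had 346.3, 227.6 and 314.2 against 389, 538.1 and 839.9, a log2 difference of -0.94 (SE 0.34, limma adjusted p = 0.697). The others were Abcd3, a transporter of acyl chains into peroxisomes, at -0.54 (SE 0.25), and Crot, the peroxisomal carnitine transferase for the shortened products, at -0.42 (SE 0.24), both named after their values were seen. With GC and length trends removed the differences were -1.28 for Acaa1b, -0.76 for Acot4, -0.22 for Abcd3 and -0.16 for Crot. In Scp2, a sterol carrier and thiolase and an abundant gene of the list, the groups overlapped, with 11929 ± 3490 (SD, n = 3) against 14973 ± 2166.

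**Figure D5:**
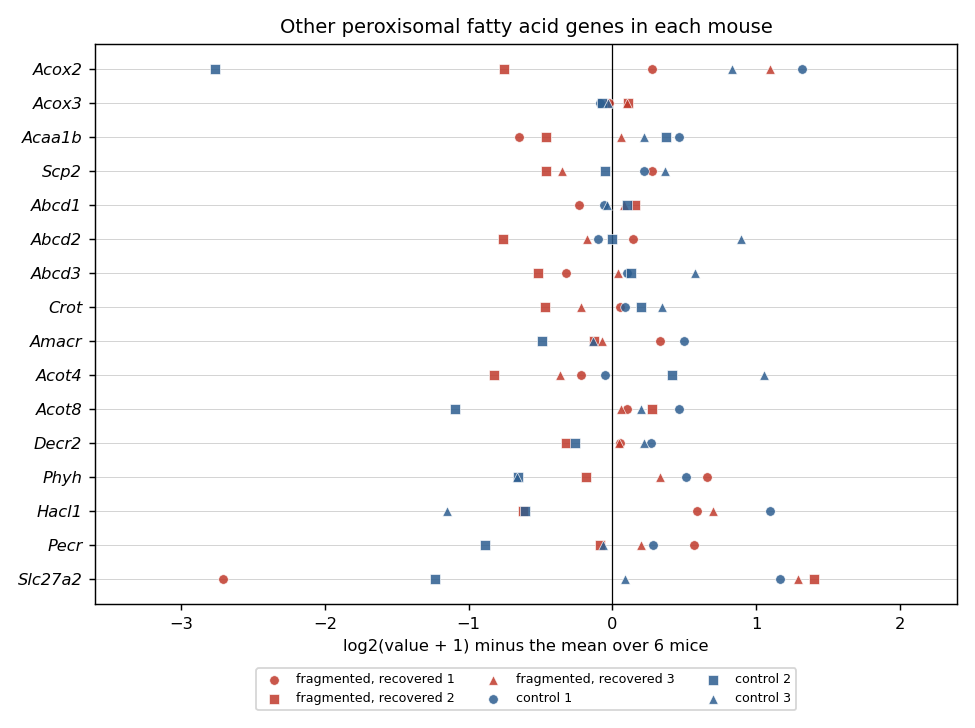
Deviation of log2(value + 1) from each gene's 6-mouse mean for 16 of the 17 peroxisomal fatty acid genes beyond the members, where each point is 1 mouse coloured by group and shaped by replicate number. All red points lie left of all blue points for Acaa1b, Abcd3, Crot and Acot4, and right of them for Acox3.

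Among 12 regulators of oxidation, 0 passed, with 5 log2 differences above and 7 below 0. Acacb, which makes the malonyl-CoA that holds back the outer carnitine transferase, had 3716, 4906 and 5859 against 6262, 5752 and 9967, a log2 difference of -0.58 (SE 0.30). Prkaa1, a catalytic subunit of AMP-activated kinase, had 1278, 1056 and 1388 against 1327, 2060 and 2606, a log2 difference of -0.64 (SE 0.29). In both the groups overlapped by 1 mouse on each side. Prkaa1 has a low GC content, 40.1%, and with GC and length trends removed its difference was -0.23. Lpin1, a phosphatidate phosphatase and coactivator, had a log2 difference of -0.02 (SE 0.31).

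Of 11 known Ppara targets outside the members, 0 passed, and 9 had log2 differences above 0, beside 51.6% of all genes, with a median of 0.352. That median was 0.682 without control 1, 0.169 with GC and length trends removed and 0.045 without fragmented, recovered 1 and control 2. Mature adipocyte markers had a median of 0.369, with 9 of 10 above 0, and their part in the values of these targets was not tested. Pdk4, which blocks pyruvate oxidation in fasting, had 11794, 9093 and 18931 against 15209, 9614 and 10629, and Angptl4, a fasting-induced inhibitor of lipoprotein lipase, 11532, 7518 and 9526 against 10100, 5100 and 5795. Both were abundant in all 6 fasted mice, and their log2 differences were 0.13 (SE 0.34) and 0.49 (SE 0.32). Cyp4a14, a fatty acid omega-hydroxylase, was at 32.1, 3.8 and 56 against 9.6, 0 and 0. Fgf21, a fasting hormone made mainly by liver, was at 6.2, 6.1 and 10.8 against 1.1, 3.4 and 0. These low values gave unadjusted p-values by limma of 0.0266 and 0.0413 and adjusted p-values of 0.697, and no fold is drawn from them.

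Of 8 genes of ketone body and odd-chain metabolism, 0 passed, with 4 log2 differences on each side of 0. Oxct1, which activates ketone bodies for use, had 3408 ± 941.3 (SD, n = 3) against 4208 ± 467.9, a log2 difference of -0.33 (SE 0.26). Pccb, a subunit of propionyl-CoA carboxylase, had a log2 difference of 0.01 (SE 0.26).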

How the data were processed

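RNA from inguinal white adipose tissue of 6 individual mice was sequenced, 3 in each group. Per the submitters' processing notes, reads were handled with featureCounts 1.5.0-p3, HISAT2 2.0.5 and CASAVA, in no stated order, and the genome build is mm8; the annotation, filters and strand setting are not given in the sources used here. The authors deposited 1 signal value per gene and library. In each library they are whole multiples of the least nonzero value, to within 0.02 for 100% of genes, so reads could be recovered. Symbols came from a reference table of gene names, which left 33 of 25894 unmatched.

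The members and lists were chosen with earlier results of these data known. The members were fixed by name, and every member is named. Of related lists, the 2 most abundant genes and the 2 with the smallest p are named, and of marker lists the 2 most abundant. Of the related genes so chosen, 2 are not reported here. The plan allowed for raw counts or scaled values, and the table holds the latter. limma 3.58.1 (R 4.3.3) with an intensity trend was run on log2(value + 1) wherever the mean value reached 1. Benjamini-Hochberg adjustment covered all 22290 such genes, at an FDR threshold of 0.05. A fold change on this scale understates changes of low genes. Recovered reads were tested with DESeq2 1.42.0 and edgeR 4.0.16. The fit was tested on simulated data. Levels per kb use the union of exons in GENCODE M21, which includes rare isoforms. GC content and length were known for 99.87% of genes, and natural splines (4 degrees of freedom) took out their trends in each library, an alternative chosen after seeing the data. Gene overlaps come from GENCODE M21, whose build is not mm8, so no gene coordinates of the table are given, and promoter windows are those of RefSeq. Compartment lists and lists of markers were described by counts and medians, with no set test. Mmut was found in the table as Mut, and the markers Tnnc2 and Krt16 were not analysed here.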

Additional observations from a re-analysis of the deposited data

How the results depend on the processing

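With all 6 mice, 0 genes and 0 members passed under each scaling, pseudocount and filter run, with edgeR, with DESeq2 and with GC and length trends removed, as with the replicate block (0 of each). limma-voom with quality weights called 1023 genes and 1 member, Etfb, at 2.34 (adjusted p = 0.0461). Leaving out each mouse in turn gave 0 to 844 genes and 0 to 2 members, all calls without control 1. The mitochondrial median ran from -0.159 to 0.300 in those fits, the peroxisomal from -0.276 to 0.062 and their gap from 0.011 to 0.245. Without control 1 and with GC and length trends removed, 40 genes passed and the peroxisomal median and the gap were -0.415 and 0.626. With GC and length trends removed and all mice, they were -0.372 and 0.381. The gap was -0.091 when fragmented, recovered 1 and control 2 were left out. The cause of these shifts was not tested.

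Members with differences near 0 changed sign in some settings. So did some further from 0, among them Hadhb (-0.321 in the main fit), Eci1 (0.28) and Acat1 (0.24). Library size scaling, which moved the median of all genes from 0.023 to 0.135, gave Cpt1a 0.049, Cpt2 0.007, Slc25a20 0.052, Acadvl 0.010, Acads 0.040 and Hsd17b4 0.068, all below that median. DESeq2 gave Crat -0.016, Acadl -0.012 and Decr1 -0.019, edgeR gave Decr1 -0.004, and limma-voom gave Cpt1a 0.019. With GC and length trends removed, Crat had -0.205, Hadhb 0.036, Eci1 -0.108 and Acaa1a -0.372, and without control 1 as well, Slc25a20 0.134, Crat -0.034, Hadhb 0.336, Hadh 0.012 and Acaa1a -0.415. With fragmented, recovered 1 and control 2 left out, Cpt1a had 0.177, Crat -0.228, Acadl -0.145, Hadha -0.036, Echs1 -0.247, Acat1 -0.039, Etfa -0.190, Decr1 -0.304, Eci1 -0.064 and Acaa1a -0.124. Over the fits that leave out each mouse, the ranges of members that changed sign were -0.283 to 0.158 for Cpt1a, -0.257 to 0.030 for Cpt2, -0.262 to 0.088 for Slc25a20, -0.197 to 0.261 for Crat, -0.289 to 0.012 for Acadvl, -0.167 to 0.275 for Acadl, -0.096 to 0.453 for Hadha, -0.154 to 0.398 for Echs1, -0.336 to 0.041 for Hadh, -0.068 to 0.325 for Etfa, -0.241 to 0.421 for Decr1, -0.072 to 0.097 for Acaa1a and -0.276 to 0.071 for Hsd17b4.

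The replicate numbers share no stated source. Deviations from group means correlated across genes at 0.177, 0.393 and 0.042 for numbers 1, 2 and 3. Other pairs lay between -0.356 and 0.208. Number 2 was above every other pair, so these values do not decide whether the mice were paired. As no pairing is stated, the main fit did not use the numbers, and the fit with the replicate block is given above. With 3 mice a group, the standard errors given set the size of change that could be seen.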

Other observations

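The 2 peroxisomal thiolase genes, Acaa1a and Acaa1b, did not keep a constant proportion. The ratio of Acaa1a to Acaa1b was 4.74, 3.6 and 2.68 in the fragmented, recovered mice and 2.27, 1.92 and 2.38 in controls, so the groups did not overlap. The log2 difference was 0.01 for Acaa1a and -0.70 for Acaa1b, so the ratio mostly follows the values of Acaa1b given above. The mean log2 ratio was 1.84 ± 0.41 (SD, n = 3) against 1.12 ± 0.16, and with GC and length trends removed the ratios were 5.34, 3.95 and 2.65 against 2.47, 1.74 and 1.98. These paralogs are close in sequence, and the counting could split their reads. The ratio of Acadm to Acads, the medium-chain and short-chain dehydrogenases, was 2.64, 3.05 and 2.96 against 3.12, 1.9 and 1.91, with control 1 the highest of the 6 mice and controls 2 and 3 the lowest. Both ratios were chosen after their values were seen and have no test. The ratios of Etfa to Etfb and of Cpt1a to Cpt2 were also computed, and in each of these the groups overlapped.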
